A study of Homo sapiens with 4 samples.

Results

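The MYC, MAX and MXD network factors are transcription factors that share dimerization partners, and their mRNA was followed here after ANP32B knockdown in MV4-11 cells. The members were the rows of the expression table whose gene symbol was MYC, MAX, MXD1, MXD3, MXD4, MXI1, MNT, MLX, MLXIP or MGA. Of these 10 genes, 9 were analysed among the 18885 genes listed, and MGA was not analysed here. All 9 passed the filter on low values and were among the 16937 genes tested. MV4-11 is a human acute myeloid leukemia (AML) cell line with monocytic features and a rearranged KMT2A gene. RNA-seq was performed on 2 libraries of the control group (NC) and 2 libraries of cells carrying a short hairpin RNA against ANP32B (sh-ANP32B). ANP32B is an acidic nuclear phosphoprotein and histone chaperone. The sample labels list no hairpin for the NC cells, whereas the study describes a control hairpin and puromycin selection. Unless the NC cells carried that control hairpin, an effect of transduction cannot be told apart from the loss of ANP32B. Both knockdown columns carry the same mark, S3, and an effect of the hairpin on other genes cannot be told apart either. The labels do not give the time of harvest. They also do not state whether the libraries of a group came from separate cultures, so the p-values measure only the spread between these libraries. The comparison addressed which members of the network moved when ANP32B was reduced, since the study follows MYC as a gene downstream of ANP32B.

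All proteins of the network carry a basic helix-loop-helix leucine zipper domain. MYC has to pair with MAX to bind the E-box, the DNA sequence CACGTG, where the pair activates genes for growth and proliferation. The MXD proteins (MXD1, MXI1, MXD3 and MXD4) and MNT compete for MAX at the same sites and recruit SIN3 corepressors with histone deacetylases. MXD proteins are known from cells that leave the cell cycle and differentiate, including myeloid cells. MGA also pairs with MAX and belongs to a variant Polycomb complex. MLX is a second hub that pairs with MLXIP (MondoA), a sensor of glucose-derived metabolites, and with some MXD proteins and MNT.

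The values are TPM, reads per gene corrected for gene length and for the library total, so levels of different genes can be compared. The 4 libraries summed to between 997271 and 998546 TPM, and the number of reads behind a value is unknown. Mitochondrial genes held 15.4% to 15.9% of the TPM in NC and 17.4% to 17.6% in sh-ANP32B. ANP32B itself had 358 and 364 TPM in NC and 54.1 and 49.3 TPM in sh-ANP32B. Differences were tested with limma on log2(TPM + 1) and called at a Benjamini-Hochberg adjusted p below 0.05 over all genes tested. A fold limit of 0.5 on the log2 scale, the limit of the study's methods, was applied beside it. For 1 gene in 2 libraries a group, the smallest two-sided p of an exact permutation test is 0.33, and the adjusted p-values depend on the variance limma pools over genes. Of 8 MV4-11 lineage markers, 7 were analysed (MPO was not) and detected in every library, at 5.52 TPM or more. Of these 7, 4 were higher, with PTPRC at 1.15 on the log2 scale, and 1 was lower, MEIS1 at -0.61. Over all genes tested, 26.0% were higher and 19.7% lower. Of 15 markers of T cells, B cells, erythroid, epithelial and fibroblast cells, 2 were analysed, both of B cells, with a summed level of 7.64 to 8.03 TPM in NC and 1.98 to 4.22 TPM in sh-ANP32B. All 6 proliferation markers were lower after knockdown, against 19.7% of all genes tested. Of the 6 monocyte maturation markers analysed, 5 were higher, against 26.0%, CD14 and CD163 not being analysed here. The part of these shifts in the values below was not tested.

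MYC was the member that fell, whereas MXD4, MLXIP, MNT and MLX rose. By the adjusted p, 1 of 9 members was lower and 4 were higher, against 19.7% and 26.0% of all genes tested. The balance over all genes depended on the scaling, with 3342 lower and 4405 higher here, 4085 and 3692 after median-of-ratios scaling and 3936 and 3534 after quantile normalization. Beyond the fold limit, 1 was lower (MYC) and 2 were higher (MXD4 and MLXIP), against 10.1% and 17.9% of all genes. The median log2 fold change of the 9 members was 0.28, beside 0.08 over all genes tested, of which the middle part (quartile to quartile) spanned -0.26 to 0.45. The libraries of the groups did not overlap for 2 members that were lower and 5 that were higher in sh-ANP32B, against 32.1% and 42.5% of all genes tested. The changes of the members therefore differed in direction and size within the network.

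**Figure D1:**
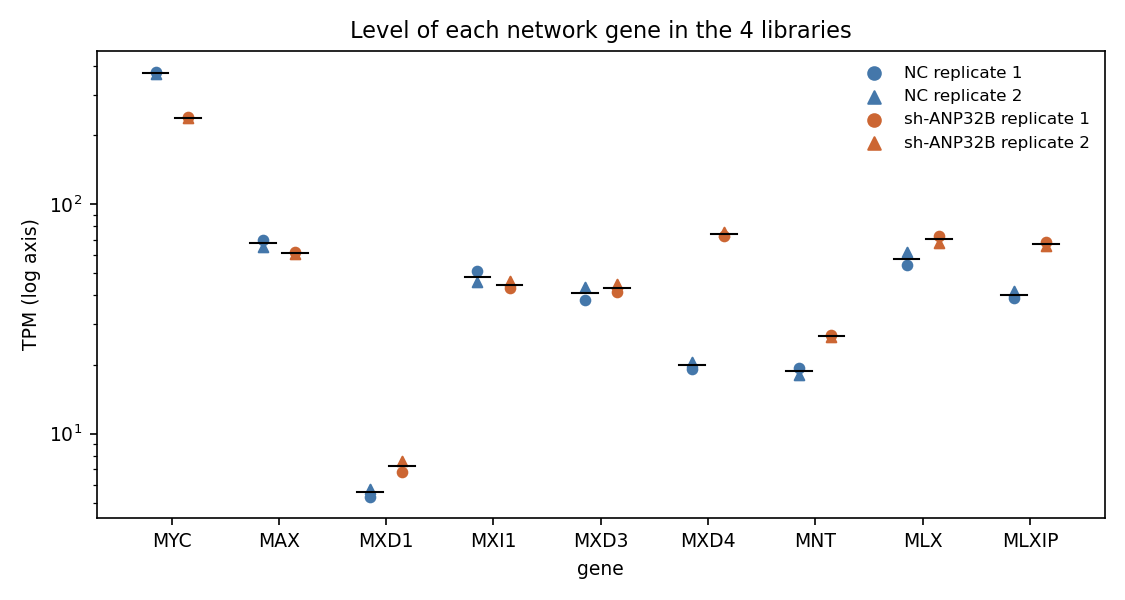
TPM of the 9 network genes on a log axis in the 2 NC libraries (blue) and the 2 sh-ANP32B libraries (orange), with circles for replicate 1, triangles for replicate 2 and black lines at the group means. MYC stands highest in both groups, MXD4 rises from about the level of MNT to above that of MAX, and the libraries of MXI1 and MXD3 overlap between the groups.

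MYC (ENSG00000136997, at 127735434 to 127742951 of chromosome 8 in hg38, plus strand) was the most abundant member. It had 376 and 370 TPM in NC and 240 and 236 TPM in sh-ANP32B. The knockdown libraries held 63.8% of the control mean, which on the log2 scale was -0.65 ± 0.036 (standard error; adjusted p = 1.91e-04, limma). Its level lay above that of 98.2% of the genes tested in NC and above that of 96.9% in sh-ANP32B, so MYC was among the highly expressed genes in both. In bulk RNA, fewer cells with a transcript and less of it per cell cannot be told apart. The long non-coding RNA PVT1, the neighbour of MYC, had 31.7 and 35.4 TPM in NC and 23.2 and 24.0 TPM in sh-ANP32B. It fell by 0.49 on the log2 scale (adjusted p = 0.00561 from limma). MYCN, MYCL and MLXIPL, the paralogs that complete the network, were not analysed here.

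MAX (ENSG00000125952, minus strand of chromosome 14, from 65006174 to 65102695), the partner that MYC and its antagonists share, had 69.9 and 64.8 TPM in NC and 61.7 and 60.5 TPM in sh-ANP32B. Both knockdown libraries lay below both NC libraries, and the difference did not pass the test. Its log2 fold change was -0.14, with a 95% interval from -0.28 to 0.01 (adjusted p = 0.105 from limma). After median-of-ratios scaling it passed, at -0.22 (adjusted p = 0.0378 from limma), and over the alternative settings the adjusted p ranged from 0.0378 to 0.388. MAX shares 822 exonic bases with FNTB on the opposite strand, and the handling of strand is not given in the sources used here. FNTB had 13.7 to 15.8 TPM over the 4 libraries.

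The MXD family did not move as a group. MXD4 (ENSG00000123933, minus strand of chromosome 4, from 2247432 to 2262109), a repressor that pairs with MAX, had 19.1 and 20.6 TPM in NC and 72.6 and 75.8 TPM in sh-ANP32B. This was a 3.74-fold higher mean, and the spread within each group was small beside it. On the log2 scale it rose by 1.85 ± 0.067 (standard error; adjusted p = 8.53e-05, limma), a change above that of 99.1% of the genes tested. Its level rose from above that of 58.3% of the genes tested to above that of 86.1%. The annotation places MIR4800 in the exons of MXD4, and no other gene shares exonic bases with it.

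MXD1 (ENSG00000059728, plus strand of chromosome 2, from 69897688 to 69942945), the first described MXD repressor, was the lowest member in both groups. It had 5.32 and 5.76 TPM in NC and 6.84 and 7.58 TPM in sh-ANP32B. The groups did not overlap, but the log2 fold change of 0.33 had a 95% interval from -0.01 to 0.66 and did not pass the test (adjusted p = 0.101 from limma). A rise of this size or none could not be told apart with these libraries. MXD1 shares 237 exonic bases with SNRNP27 on the same strand, which had 11.2 to 15.1 TPM over the 4 libraries.

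MXI1 (ENSG00000119950, plus strand of chromosome 10, from 110207605 to 110287365), which also represses through SIN3, had 51.0 and 45.6 TPM in NC and 43.0 and 46.1 TPM in sh-ANP32B. The groups overlapped, and the log2 fold change was -0.11 with a 95% interval from -0.31 to 0.08 (adjusted p = 0.282 from limma). MXD3 (ENSG00000213347, minus strand of chromosome 5, from 177301461 to 177312757), known from S phase, had 38.3 and 43.7 TPM in NC and 41.5 and 44.9 TPM in sh-ANP32B. These groups overlapped as well, with a log2 fold change of 0.08 and a 95% interval from -0.14 to 0.29 (adjusted p = 0.506 from limma). The value of MXD3 is uncertain, because it shares 926 exonic bases with RAB24 on the same strand and 1148 with PRELID1 on the opposite strand. PRELID1 was the more abundant, with 243 and 252 TPM in NC and 163 and 153 TPM in sh-ANP32B.

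MNT (ENSG00000070444, minus strand of chromosome 17, from 2384073 to 2401104), the broadly expressed MAX partner that opposes MYC in growing cells, had 19.4 and 18.0 TPM in NC and 27.0 and 26.3 TPM in sh-ANP32B. The mean was 1.43-fold higher without overlap of the groups. On the log2 scale it rose by 0.49 ± 0.078 (standard error; adjusted p = 0.00480, limma), near the fold limit. It lay beyond that limit at a pseudocount of 0.1 (0.51), without NC replicate 1 (0.54) and without sh-ANP32B replicate 2 (0.51).

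In the Mondo branch, MLXIP (ENSG00000175727, plus strand of chromosome 12, from 122078756 to 122147344) had 39.1 and 41.7 TPM in NC and 68.6 and 65.7 TPM in sh-ANP32B. It was 1.66-fold higher, or 0.72 ± 0.060 on the log2 scale (standard error; adjusted p = 5.39e-04, limma). MLX (ENSG00000108788, plus strand of chromosome 17, from 42567072 to 42573239), its partner, had 54.1 and 61.8 TPM in NC and 72.9 and 67.9 TPM in sh-ANP32B. The rise of MLX was 1.22-fold, or 0.28 ± 0.080 on the log2 scale (standard error; adjusted p = 0.0356, limma). This call was the least stable among the members. Adding the replicate number as a block to the fit removed it (adjusted p = 0.0615 from limma), as did leaving out NC replicate 1 (log2 fold change 0.18, adjusted p = 0.124 from limma) or sh-ANP32B replicate 1 (0.23, adjusted p = 0.124 from limma). It was also lost without the variance trend (adjusted p = 0.105 from limma). After median-of-ratios scaling the log2 fold change was 0.20 (adjusted p = 0.0778 from limma), and over the alternative settings the adjusted p ranged from 0.0190 to 0.124. MLX shares 775 exonic bases with PSMC3IP on the opposite strand, which had 17.7 and 18.3 TPM in NC and 9.96 and 12.2 TPM in sh-ANP32B.

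**Figure D2:**
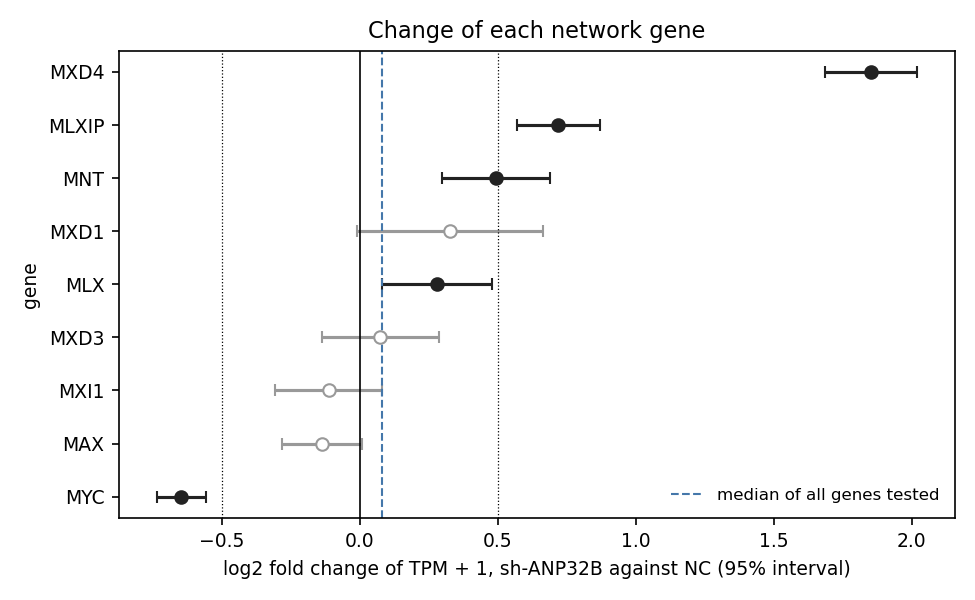
Log2 fold change of TPM + 1 in sh-ANP32B against NC for the 9 network genes, with 95% intervals from limma, filled points for an adjusted p below 0.05, dotted lines at the fold limit of 0.5 in either direction and a dashed line at the median of all genes tested (0.08). MXD4 lies farthest from 0 at 1.85 and MYC is the gene below the lower limit at -0.65.

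The promoters of the 4 members that rose are shown because MYC, the MXD proteins and MNT bind the same E-box. The sequences are from RefSeq on GRCh38.p14, and entries were found for all members but MYC. For each, up to 250 bases before the RefSeq start site are given in the direction of the gene, without bases that lie inside the GENCODE gene. Capitals mark CACGTG, which reads the same on both strands. The windows are chr4:2262110-2262359 on the minus strand for MXD4, chr12:122078506-122078755 on the plus strand for MLXIP, chr17:2401105-2401310 on the minus strand for MNT and chr17:42566850-42567071 on the plus strand for MLX.
MXD4: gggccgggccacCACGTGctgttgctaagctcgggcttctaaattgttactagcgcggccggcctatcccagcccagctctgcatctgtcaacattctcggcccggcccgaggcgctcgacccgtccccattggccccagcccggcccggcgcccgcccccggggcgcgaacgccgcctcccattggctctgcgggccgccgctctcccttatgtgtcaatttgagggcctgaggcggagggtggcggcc
MLXIP: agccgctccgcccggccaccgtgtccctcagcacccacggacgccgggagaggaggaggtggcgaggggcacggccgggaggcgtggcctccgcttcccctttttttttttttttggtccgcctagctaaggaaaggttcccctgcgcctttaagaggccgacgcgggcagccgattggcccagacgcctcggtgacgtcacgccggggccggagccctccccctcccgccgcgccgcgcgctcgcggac
MNT: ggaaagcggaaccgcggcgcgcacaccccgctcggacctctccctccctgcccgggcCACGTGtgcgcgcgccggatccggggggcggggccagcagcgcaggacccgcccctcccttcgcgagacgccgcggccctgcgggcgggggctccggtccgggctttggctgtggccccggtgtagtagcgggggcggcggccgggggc
MLX: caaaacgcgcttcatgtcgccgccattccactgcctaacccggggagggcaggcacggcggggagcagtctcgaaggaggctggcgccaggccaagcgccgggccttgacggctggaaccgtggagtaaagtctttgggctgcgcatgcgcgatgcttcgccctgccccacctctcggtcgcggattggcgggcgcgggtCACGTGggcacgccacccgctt

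In the windows of 250 bases, CACGTG began 238 bases before the start site of MXD4, 193 before that of MNT and 50 before that of MLX. These were 3 of the 14 windows listed for 9 members (MGA included), and the same letters occurred in 6.34% of all 35116 windows. The window of MLXIP held none, which says only that the letters are not in this window. The windows were rich in G and C, from 55.6% to 78.0%. A match describes the sequence and does not show binding, which was not measured in these libraries.

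The order of the members by level differed between the groups. In NC the order was MYC, MAX, MLX, MXI1, MXD3, MLXIP, MXD4, MNT and MXD1, where MXD3 and MLXIP, and MXD4 and MNT, overlapped in their libraries. In sh-ANP32B the order was MYC, MXD4, MLX, MLXIP, MAX, MXI1, MXD3, MNT and MXD1. Here MXD4 overlapped with MLX, MLX with MLXIP, and MXI1 with MXD3. MXD4 thus moved from rank 7 to rank 2, and MAX from rank 2 to rank 5. MYC and MXD1 kept the first and the last rank.

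Ratios and shares within a library do not depend on how the libraries were scaled to each other, whereas sums of TPM do. The summed TPM of the 5 repressors MXD1, MXI1, MXD3, MXD4 and MNT was 133 and 134 in NC and 191 and 201 in sh-ANP32B. Without MXD4, the sum of the other 4 was 114 and 113 TPM in NC and 118 and 125 TPM in sh-ANP32B. Most of the added repressor mRNA was thus MXD4, whose share of the sum was 14.3% and 15.4% in NC and 38.0% and 37.8% in sh-ANP32B. MXI1 had the largest share in NC, with 38.3% and 34.1%, and 22.5% and 23.0% in sh-ANP32B.

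The repressor sum relative to MYC was 0.354 and 0.361 in NC and 0.796 and 0.849 in sh-ANP32B. On average this was 2.3 times higher in sh-ANP32B, and 1.68 times higher without MXD4. MYC made up 73.7% ± 0.280 (SD, n = 2) of the summed TPM of MYC and the 5 repressors in NC and 54.9% ± 1.14 (SD, n = 2) in sh-ANP32B. The ratio of MYC to MAX was 5.38 and 5.71 in NC and 3.89 and 3.91 in sh-ANP32B. MAX amounted to 13.7% and 12.9% of the summed TPM of its measured partners in NC and to 14.3% and 13.8% in sh-ANP32B, where both values lay just above those of NC. MLXIP relative to MLX was 0.723 and 0.674 in NC and 0.941 and 0.967 in sh-ANP32B. The ratios describe mRNA, not protein, MGA is not in the sums, and the value of MXD3 in them is uncertain.

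**Figure D3:**
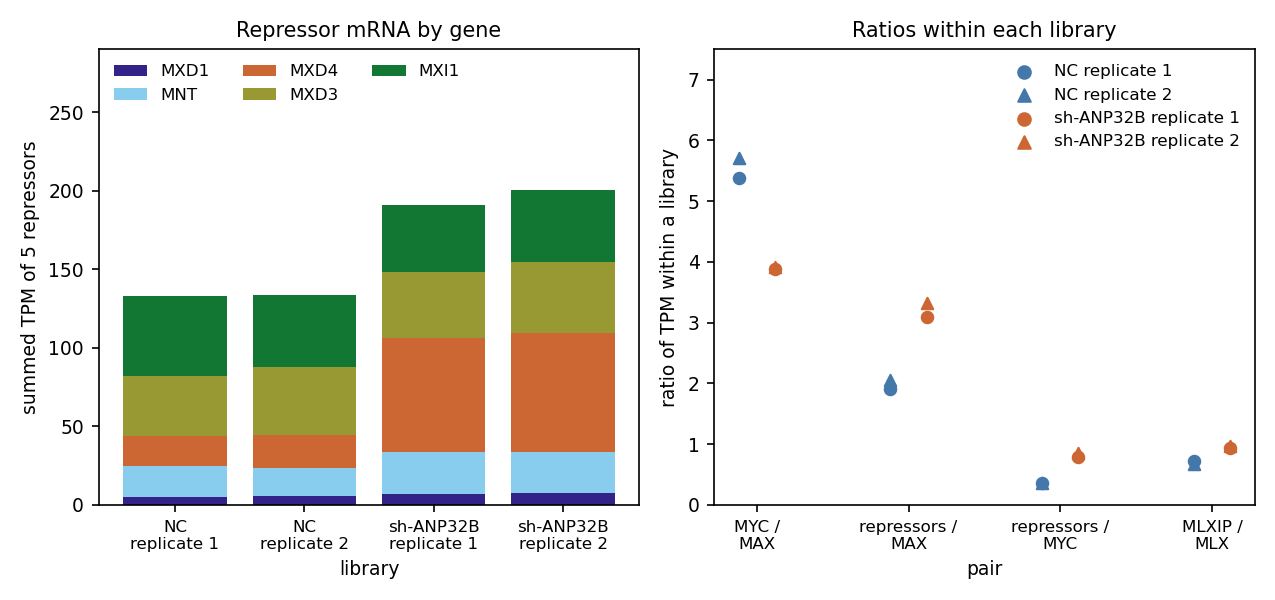
Left, TPM of the 5 MAX-binding repressors stacked for each library from 0. Right, ratios of TPM within each library, with NC in blue and sh-ANP32B in orange. The stack grows from 133 and 134 TPM to 191 and 201 TPM, mostly in the MXD4 segment, and each of the 4 ratios separates the groups.

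The cofactors of the network were followed through lists of genes, whose counts stand against 19.7% lower and 26.0% higher over all genes tested. Of 15 MYC coactivators, 9 were lower and 2 were higher. Their median on the log2 scale was -0.25, beside 0.08 over all genes tested. The lower ones included the AAA+ ATPases RUVBL1 and RUVBL2 of the TIP60 and INO80 complexes, with log2 fold changes of -0.74 (adjusted p = 2.59e-04 from limma) and -0.60 (adjusted p = 3.95e-04 from limma). RUVBL1 had 109 and 108 TPM in NC and 66.1 and 63.5 TPM in sh-ANP32B. ACTL6A, an actin-related subunit of the same complexes, was lower at -0.52, and WDR5, which recruits MYC to chromatin, at -0.43. The 2 higher ones, named after their values were seen, were CDK9 (0.34), the kinase that releases paused RNA polymerase, and the acetyltransferase EP300 (0.26). EP300 passed the test under 5 of 11 alternative settings.

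Of 12 genes of the SIN3 and NCOR corepressors, through which MXD and MNT proteins repress, 7 were lower and 1 was higher, with a median of -0.23, beside the same 19.7% and 26.0%. SAP30, a SIN3 subunit, had 57.4 and 65.9 TPM in NC and 25.5 and 25.1 TPM in sh-ANP32B, or -1.25 on the log2 scale (adjusted p = 2.72e-04, limma). The histone-binding subunits RBBP7 and RBBP4 were lower at -0.81 and -0.52, and the deacetylase HDAC2 at -0.51. SIN3B, the higher one and named after its values were seen, had 50.5 and 63.1 TPM in NC and 77.2 and 75.1 TPM in sh-ANP32B (adjusted p = 0.0230 from limma), a call that held under 8 of 11 alternative settings. The repressors and their corepressors thus did not move in 1 direction, since MXD4 and MNT rose while 7 of the 12 corepressor genes fell.

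MGA itself was not analysed, but its partners in the variant Polycomb complex PRC1.6 were. Of these 10 genes, 5 were lower and 1 was higher, with a median of -0.25 (19.7% and 26.0% over all genes). PCGF6, the ring-finger subunit that defines the complex, had 27.4 and 29.9 TPM in NC and 15.3 and 12.6 TPM in sh-ANP32B, 48.6% of the NC mean (adjusted p = 0.00151, limma). RNF2, the ubiquitin ligase, was lower at -0.86, TFDP1, the dimer partner of E2F6, at -0.48, and CBX3, a heterochromatin protein, at -0.28. RING1, named after its values were seen, was the higher one at 0.81 (adjusted p = 0.0363 from limma), from a low level of 1.5 and 2.5 TPM in NC. Its call held under 5 of 11 alternative settings.

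Of 13 genes that act on the stability of the MYC protein, 7 were lower and 1 was higher, with a median of -0.34 (19.7% and 26.0% over all genes). AURKA, a mitotic kinase that shields MYC proteins from degradation, was lower at -0.85 (adjusted p = 2.57e-04 from limma). CIP2A, an inhibitor of the phosphatase PP2A, was lower at -0.67, and SKP2, a ubiquitin ligase subunit that acts on MYC, at -0.50. GSK3B, a kinase that phosphorylates MYC for recognition by FBXW7, was the higher one. It had 23.2 and 24.7 TPM in NC and 35 and 33.8 TPM in sh-ANP32B, or 0.51 on the log2 scale (adjusted p = 0.00306, limma). Its paralog GSK3A, named after its values were seen, was lower at -0.34 (adjusted p = 0.00880 from limma). FBXW7, named after its values were seen, had 13.5 and 13.8 TPM in NC and 13.9 and 12.8 TPM in sh-ANP32B, and did not pass the test (adjusted p = 0.824 from limma). AURKA and SKP2 vary over the cell cycle, and the proliferation markers were lower in the same libraries.

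Of 20 genes that MYC is known to activate, 19 were lower and 1 did not pass, with a median of -0.62, against 19.7% lower over all genes. Beyond the fold limit, 13 of the 20 were lower, against 10.1% of all genes. Among them were NCL (-0.85) and NPM1 (-0.83), nucleolar proteins, PTMA (-0.70), prothymosin alpha, and SHMT2 (-0.66), a mitochondrial enzyme of one-carbon metabolism. NPM1 had 1417 and 1287 TPM in NC and 758 and 763 TPM in sh-ANP32B. EIF4E, named after its values were seen, was the gene that did not pass, at -0.01 with libraries from 19.7 to 28 TPM in sh-ANP32B. This list, like the others, was chosen with earlier results of these data known, so its counts are not independent of them. The proliferation markers were lower in the same libraries, and their part in these values was not tested.

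Of 10 genes that MYC is known to repress, 5 were higher and 3 were lower, with a median of 0.26, against 26.0% and 19.7% of all genes tested. CDKN1C passed the filter on low values through the sh-ANP32B libraries alone, with 0.871 and 0.573 TPM in NC and 1.74 and 2.18 TPM in sh-ANP32B. With at least 1 TPM required in all 4 libraries, 4 of 9 genes were higher and 3 lower, with a median of 0.09. The cell cycle inhibitor CDKN1A had 8.56 and 7.15 TPM in NC and 16.5 and 20.2 TPM in sh-ANP32B, or 1.13 on the log2 scale (adjusted p = 0.00215, limma). NDRG1 was higher at 0.43, with 141 and 144 TPM in NC and 193 and 189 TPM in sh-ANP32B. GADD45B, a stress-response gene, was among the lower ones at -0.68. The list did not move in 1 direction. The other higher members were CDKN2B, CDKN1C and TXNIP, and the other lower ones CDKN1B and CLU, of which CDKN2B, CDKN1C, CDKN1B and CLU were named after their values were seen. The call of CDKN1C held under 4 of the 10 alternative settings that tested it, and that of CLU under 7 of 11.

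TXNIP, an arrestin-like protein that limits glucose uptake, is also the classic target of MLXIP. It had 103 and 103 TPM in NC and 241 and 241 TPM in sh-ANP32B, or 1.21 ± 0.038 on the log2 scale (standard error; adjusted p = 6.52e-05, limma). The list of targets of MLXIP and its paralog MLXIPL, which includes TXNIP, did not move in 1 direction. Of 7 analysed of 10 listed, 3 were higher and 2 were lower, with a median of 0.15, against 26.0% and 19.7% of all genes tested, and nothing is read from so few genes. MID1IP1 was higher at 0.35 (adjusted p = 0.00393 from limma) and SCD at 0.15, whereas RGS16 was lower at -0.69 and FASN, named after its values were seen, at -0.14. The calls of SCD and FASN held under 6 and 5 of 11 alternative settings. ARRDC4, PKLR and ELOVL6 were not analysed here.

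**Figure D4:**
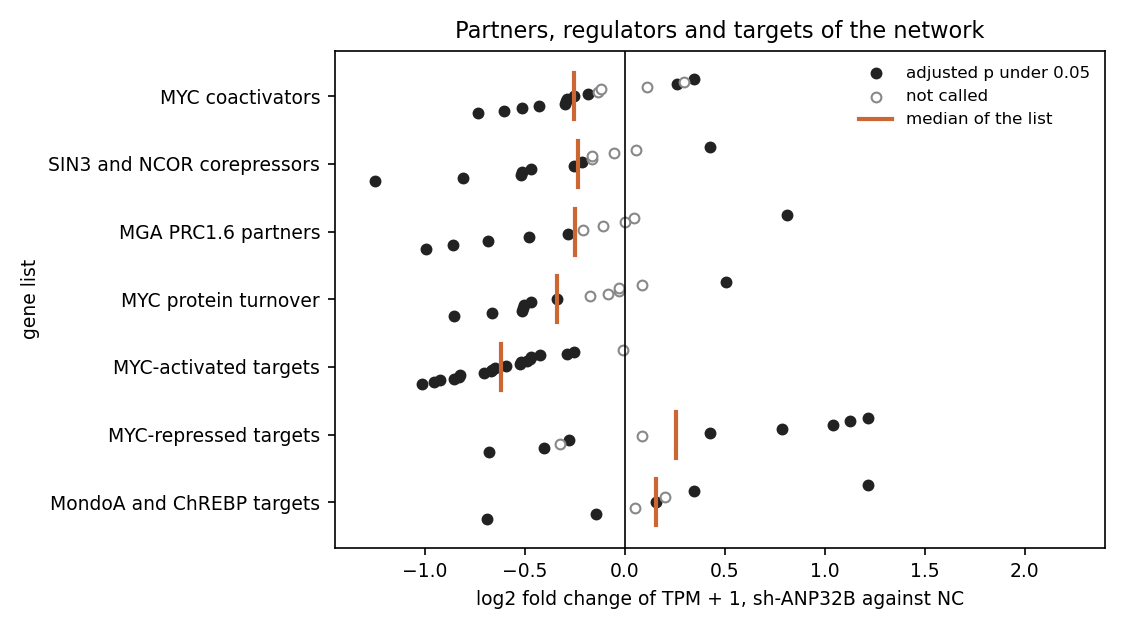
Log2 fold change of TPM + 1 in sh-ANP32B against NC for the genes of 7 lists of partners, regulators and targets, with filled points for an adjusted p below 0.05, open points for genes not called and orange lines at the list medians. The MYC-activated targets lie left of 0 with a median of -0.62, while the MYC-repressed and the MondoA and ChREBP (MLXIP and MLXIPL) targets spread to both sides.

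The genes whose pattern was most like that of MYC were found by the Euclidean distance of log2(TPM + 1) centred on its mean over the 4 libraries, among the 9638 other genes averaging 10 TPM or more. The 5 nearest were USP39, a splicing factor, HNRNPA3, an RNA-binding protein, PRIM2, a primase subunit, PSMD5, a chaperone of the proteasome, and NOLC1, a nucleolar protein. Their distances ran from 0.012 to 0.023. USP39 had 86.6 and 84.4 TPM in NC and 54.4 and 53.6 TPM in sh-ANP32B. Over 4 libraries of 2 groups, this distance is set mainly by the size of the log2 fold change.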

How the data were processed

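RNA was sequenced from 2 NC and 2 sh-ANP32B libraries of MV4-11 cells. The authors aligned reads to hg38 with HISAT2 (version 2.0.5 per the labels) and the deposited values are TPM for each gene. This unit was read from the values, which sum to nearly the same total in each library. The quantifier, the annotation and the handling of strand are not given in the sources used here, and TPM keep no record of depth. Near-identical or overlapping genes could therefore share reads.

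Of 18885 identifiers, 17290 matched GENCODE version 44, which also gave positions and shared exons, and 14961 had a symbol. The knockdown columns carry the mark S3 and were matched to the sh-ANP32B labels by replicate number. Genes reaching 1 TPM in 2 or more libraries entered the test with limma 3.58.1 in R 4.3.3 (lmFit, eBayes with a trend) on log2(TPM + 1), and fold changes on this scale understate changes of low genes. Python 3.11.15 was used for tables and plots. The test was tried on simulated data with known changes. It called 26 of 67 genes with a true log2 change of 0.5, 53 of 67 at 1 and 66 of 66 at 2. Of 16737 unchanged genes, 4 were called. Changes of 0.5 or less can therefore be missed.

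Alternatives were the replicate block, no filter, at least 1 TPM in all 4 libraries, a pseudocount of 0.1, median-of-ratios scaling, quantile normalization, no variance trend, the unadjusted p with the fold limit, and each library left out. Deviations of same-numbered libraries within their groups had a correlation of -0.0232. With 2 libraries a group, this value cannot show whether the replicate numbers pair the libraries. The members and gene lists were chosen with earlier results of these data known. Named were all members, ANP32B, up to 4 genes of each list with the smallest adjusted p, and the 5 genes nearest to MYC. Those nearest to MXD1 are not reported here. List genes named outside this rule for their values are marked, and some genes sharing exons with a member are named for that. MYC, MXI1 and MNT also share 194, 205 and 1065 exonic bases with long non-coding genes on the opposite strand, not analysed here. Promoter windows came from RefSeq.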

Additional observations from a re-analysis of the deposited data

How the results depend on the processing

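MYC, MXD4, MNT and MLXIP kept their direction and their call under all 11 alternative fits, with log2 fold changes from -0.73 to -0.58 for MYC, 1.77 to 1.90 for MXD4, 0.41 to 0.54 for MNT and 0.64 to 0.76 for MLXIP. MXD1 stayed higher and was not called in any of them (adjusted p from 0.0558 to 0.457 in limma). The number of members called lower became 2 after median-of-ratios scaling, when MAX was added. The number called higher became 2 at an unadjusted p below 0.05 with the fold limit, against 20.2% of all genes, because MNT and MLX lie under that limit in the reported fit. With each library left out in turn, 1 member was lower and 3 or 4 were higher. When the replicate number was added as a block, for which no shared culture or day is stated, the members called were 1 lower and 3 higher, MLX being lost, and 3102 genes were lower and 4031 higher over all genes against 3342 and 4405 without it. MXD3 was not called and had a negative value in 2 fits. The repressor sum relative to MYC stayed between 2.23 and 2.38 times the NC value with each library left out, and was 1.68 times without MXD4, an alternative chosen after seeing the data, as were the counts over all genes. Leaving out MGA from this sum was not run, since MGA was not analysed. Of the 87 genes of the lists, 53 were lower and 12 higher, with 46 to 49 lower and 7 to 10 higher when a library was left out. Over all genes tested, 19.7% were lower and 26.0% higher in the reported fit. With a library left out, fewer genes were called in both directions over all genes as well. The smaller counts of the lists therefore cannot be read as particular to the lists. The fewest higher genes of the lists were found without sh-ANP32B replicate 1, and the cause was not tested. Quantile normalization moved the median of all genes from 0.08 to -0.04. Depth is unknown, so no counting error can be given, and it limits MXD1 and other low genes most.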
